A study of Mus musculus with 8 samples.

Results

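The genes of antigen presentation by the major histocompatibility complex (MHC) were followed in mouse colonic organoids, which are epithelial cultures that grow in a gel from colon crypts. They were taken as the protein-coding rows of the deposited table whose symbol begins with H2-, without H2-Ke6, together with B2m, Tap1, Tap2, Tapbp, Tapbpl, Erap1, Nlrc5, Ciita, Cd74, Cd1d1 and Mr1. This gave 46 of 45777 genes. The knockout organoids (KO, 4 libraries, replicates 5 to 8) came from Reg3aΔIEC mice, in which Cre recombinase driven by the Villin promoter removes the loxP-flanked exons 2 to 4 of Reg3a in the intestinal epithelium. The wild-type organoids (WT, 4 libraries, replicates 13 to 16) came from Reg3afl/fl mice, which carry the same floxed gene undeleted. REG3A is a secreted lectin of the Reg family. The labels name C57BL/6J mice, and both genotypes were male and aged 9 weeks. Organoids of both were collected 3 days after a passage, at no more than 15 passages, without treatment. The labels give both 1 mouse per genotype in 4 wells and 3 mice per genotype in triplicate. The spread between libraries, and with it every p-value below, may thus be technical, and the genotype cannot be told apart from the mouse or the organoid line.

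MHC class I molecules display peptides from inside the cell to CD8 T cells. A heavy chain, encoded on mouse chromosome 17 in the H2 complex, pairs with the light chain beta-2-microglobulin. Peptides cut by the proteasome are carried into the endoplasmic reticulum by the transporter TAP, trimmed by the aminopeptidase ERAP1, and fitted to the heavy chain with the help of tapasin. Class II molecules display peptides from the endosomal pathway to CD4 T cells. Dendritic cells, macrophages and B cells make them constantly, and intestinal epithelium makes them mainly when exposed to interferon gamma. NLRC5 is the transactivator of class I genes, and CIITA that of class II genes.

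Library totals ran from 42370611 to 48533942 counts in KO and from 37182098 to 49256171 counts in WT. The MHC and loading genes together held 0.166 to 0.171% of all counts in KO and 0.156 to 0.169% in WT. Reg3a itself had 0 counts in all 8 libraries, so its level could not check the labels. The 7 epithelial markers examined were present in every library, with Epcam at 86268 to 99132 counts in KO and 76259 to 104024 counts in WT. Of these 7, Vil1 (log2 fold change 0.25) and Cdx2 (0.33) were higher in KO (adjusted p of 0.0021 and 0.00024 by edgeR). In bulk RNA, fewer cells of a type and less RNA per cell cannot be told apart. For some markers of other cell types, though not for all, KO library 6 stood apart from the other 7, as given with the class II genes.

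The class I heavy chain genes arose by duplication, and the sequences show how alike they still are. Exon 4 encodes the alpha-3 domain, the membrane-near part that the CD8 co-receptor touches. The first 60 of its 276 bases are printed for the classical genes H2-K1 and H2-D1, for the 3 Q-region genes with the smallest adjusted p, and for the T-region gene H2-T23. Each is in the direction of the gene, from the GENCODE vM21 transcripts of GRCm38, and capitals mark bases that differ from H2-K1.
H2-K1: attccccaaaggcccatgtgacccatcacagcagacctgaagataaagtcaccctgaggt
H2-D1: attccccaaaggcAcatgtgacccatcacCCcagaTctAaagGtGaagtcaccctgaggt
H2-Q2: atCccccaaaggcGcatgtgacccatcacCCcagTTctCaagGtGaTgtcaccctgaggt
H2-Q10: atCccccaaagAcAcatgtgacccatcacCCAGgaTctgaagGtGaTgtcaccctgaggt
H2-Q4: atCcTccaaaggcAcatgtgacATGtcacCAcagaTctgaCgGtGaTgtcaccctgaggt
H2-T23: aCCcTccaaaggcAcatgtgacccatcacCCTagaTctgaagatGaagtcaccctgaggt
The H2-K1 stretch lies at chr17:33997501-33997560 on the minus strand, the H2-Q2 stretch at chr17:35344755-35344814 and the H2-Q10 stretch at chr17:35473083-35473142, both on the plus strand. Over the whole exon H2-Q2 differed from H2-K1 at 24 bases, H2-Q4 at 20, H2-Q10 at 17, H2-T23 at 13 and H2-D1 at 11. Long runs of lower-case letters are the same in all 6 genes.

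Over the whole coding sequence H2-K1 and H2-D1 were identical at 91.4% of aligned bases, H2-K1 and H2-Q10 at 88.1%, H2-K1 and H2-Q2 at 85.5%, and H2-Q6 and H2-Q7 at 95.4%. To see where counts could be split between copies, each distinct 100-base window of all annotated transcripts of a gene was looked up in the transcripts of all other genes. None of the windows of B2m, Tap1 or Tap2 occurred in another gene. The share was 0.0775% for Tapbp, 0.957% for H2-K1, 2.16% for H2-Q4, 3.15% for H2-T23, 3.59% for H2-D1 and 5.37% for H2-T-ps. H2-Q2 shared 106 of its 2082 windows (5.09%), all with H2-Q1 and none in the 1262-base transcript with its longest coding sequence, and H2-Q10 shared 8.01%, most of them with H2-Q7. The share was 8.05% for H2-Q1, 8.86% for H2-T22, 10.8% for H2-Q6 and 11.98% for H2-Q7. Within the transcript of the longest coding sequence alone, the share was larger for H2-Q7 (21.9%), H2-T22 (14.2%) and H2-Q1 (13.1%). It was also larger there for H2-T23 (7.28%), H2-D1 (4.64%) and H2-Q4 (2.66%). For H2-Q6 it was the same (10.8%), and it was smaller for H2-Q10 (2.06%) and H2-K1 (0%). The counts of these genes are uncertain where the counting could split such reads. Outside class I, H2-DMb1 and H2-DMb2 shared 11.3% and 10.3% of their windows, and Cd1d1 shared 10.5% with Cd1d2.

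NLRC5 and CIITA act through factors bound at the X and Y boxes of MHC promoters. Windows of 300 bases, from 250 before to 50 after the start, were taken from RefSeq (GRCm38.p6) and are shown for the Q-region genes that rose, for H2-Q4 and for the most abundant gene, H2-K1. Capitals mark CCAAT, the core of the Y box, and TGACG, the core of the X2 box, on either strand (ATTGG and CGTCA when read on the other strand).
H2-Q2: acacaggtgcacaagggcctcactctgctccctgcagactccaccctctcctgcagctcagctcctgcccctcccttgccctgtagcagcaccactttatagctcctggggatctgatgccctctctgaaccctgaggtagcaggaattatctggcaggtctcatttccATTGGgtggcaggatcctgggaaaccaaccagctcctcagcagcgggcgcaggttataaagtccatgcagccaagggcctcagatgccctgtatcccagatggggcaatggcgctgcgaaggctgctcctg
H2-Q10: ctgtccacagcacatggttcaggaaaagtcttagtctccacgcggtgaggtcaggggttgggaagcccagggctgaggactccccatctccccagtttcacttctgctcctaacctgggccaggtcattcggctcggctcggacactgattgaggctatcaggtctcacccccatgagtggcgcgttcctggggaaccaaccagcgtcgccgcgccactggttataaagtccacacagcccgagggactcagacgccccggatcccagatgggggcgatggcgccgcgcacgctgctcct
H2-Q4: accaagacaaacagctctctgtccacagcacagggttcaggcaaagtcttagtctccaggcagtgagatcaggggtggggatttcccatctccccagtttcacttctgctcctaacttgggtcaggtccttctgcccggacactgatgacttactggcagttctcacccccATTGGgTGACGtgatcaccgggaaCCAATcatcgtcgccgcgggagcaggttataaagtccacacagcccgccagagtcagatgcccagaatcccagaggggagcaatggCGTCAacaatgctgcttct
H2-K1: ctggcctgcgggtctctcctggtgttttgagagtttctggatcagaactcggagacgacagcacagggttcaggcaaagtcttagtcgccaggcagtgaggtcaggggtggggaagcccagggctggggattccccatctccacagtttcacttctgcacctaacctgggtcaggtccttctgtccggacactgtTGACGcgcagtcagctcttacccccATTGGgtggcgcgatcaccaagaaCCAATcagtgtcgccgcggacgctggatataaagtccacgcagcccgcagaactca
The H2-Q2 window is chr17:35342057-35342356, the H2-Q10 window chr17:35469839-35470138 and the H2-Q4 window chr17:35379367-35379666, all on the plus strand, and the H2-K1 window is chr17:34000284-34000583 on the minus strand. The H2-K1 window held 2 CCAAT matches and 1 TGACG match, the H2-D1 window held the same numbers, and the H2-Q4 window held 2 of each. The TGACG matches of H2-Q4 are not placed like that of H2-K1, which lies before ATTGG. In H2-Q4, 1 lies just after ATTGG and the other within the 50 bases after the start. The count of matches in H2-Q4 thus does not show an X2 box. The H2-Q2 window held 1 CCAAT match and no TGACG match, and the H2-Q10 window held neither. Among 39 windows of 36 of these genes, 33 held CCAAT, 15 held TGACG and 4 held a pair of GAAA runs with any 2 bases between them, the core of an interferon response element. Among all 32851 windows the shares were 37.4% for CCAAT, 20.8% for TGACG and 3.44% for the GAAA pair. The search took exact matches only, so a window without a match, such as H2-K1 for the GAAA pair, may hold a variant form. Windows of copied genes are not independent of each other, 2 bases over all windows lay in more than 1 motif, and these counts describe letters, not binding.

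Of the 46 genes, 22 had enough counts to test, 10 had a few counts and 14 had none in any library. All 8 classical and Q-region genes were tested, as were 6 of 7 light chain and loading genes and 3 of 5 T-region genes. Of 12 M-region class I genes 1 was tested and 10 had no counts, and of 12 class II genes, counting Ciita and Cd74, 3 were tested and 4 had no counts (H2-Eb2, H2-Ea-ps, H2-Oa and H2-Ob). The heat map of counts shows this layout.

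**Figure D1:**
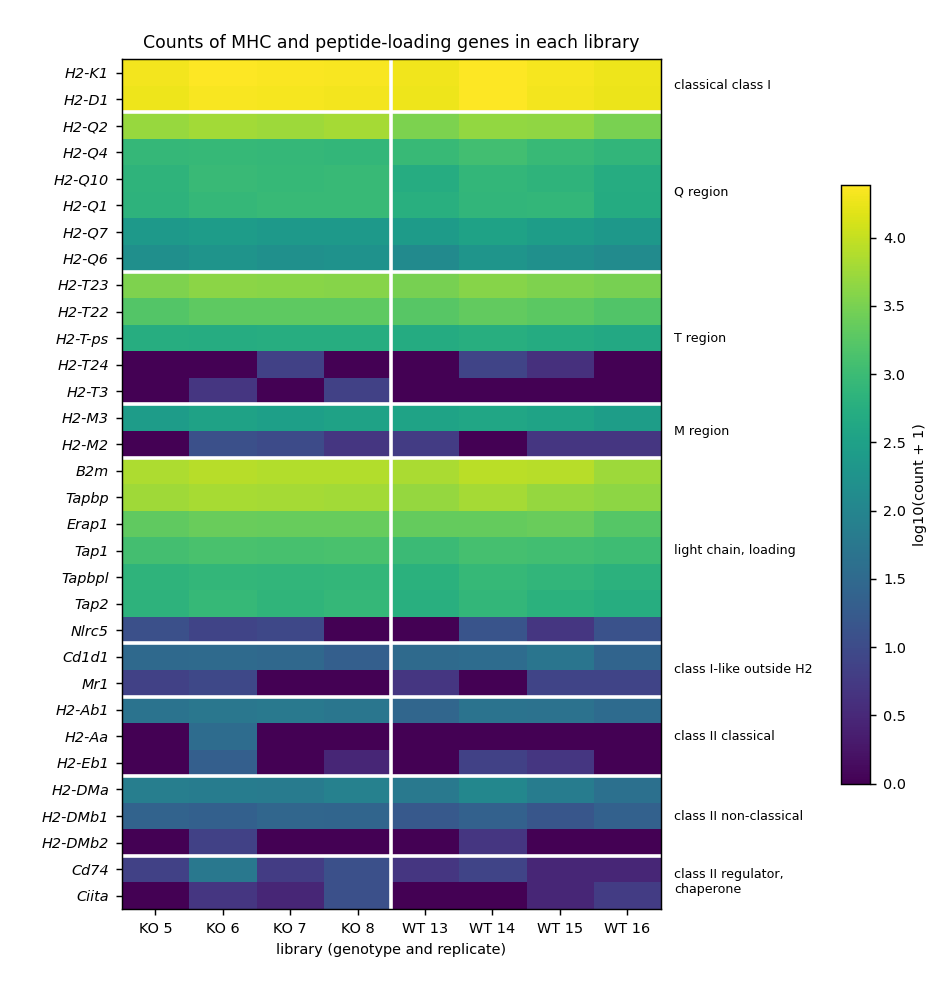
Counts per library, as log10(count + 1), of the 32 MHC and loading genes with counts in at least 1 library, with KO libraries left of WT libraries and genes grouped by role. H2-K1 and H2-D1 are brightest in all 8 libraries, and H2-Aa is filled in KO library 6 alone.

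Between the genotypes 3 genes were higher in KO, H2-Q2, H2-Q10 and Tapbp, and 0 were lower (quasi-likelihood test of edgeR, p adjusted by Benjamini-Hochberg over 14945 genes, threshold 0.05). At an unadjusted p under 0.05 the numbers were 5 higher and 3 lower. The DESeq2 Wald test gave 4 higher and 1 lower, and limma-voom gave 3 higher and 0 lower. Of all tested genes 15.9% were called, 7.63% as higher and 8.26% as lower, so the 13.6% of MHC and loading genes that were called is near the background. The median log2 fold change of the 22 genes was 0.04, against -0.0012 for all genes tested, and the median size of the change was 0.16 against 0.11. Libraries of the genotypes did not overlap for 4 genes higher in KO (9.91% of all genes tested) and for 2 genes lower in KO (10.3% of all genes tested). The count of higher genes lay between 2 and 4 when any 1 library was left out.

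**Figure D2:**
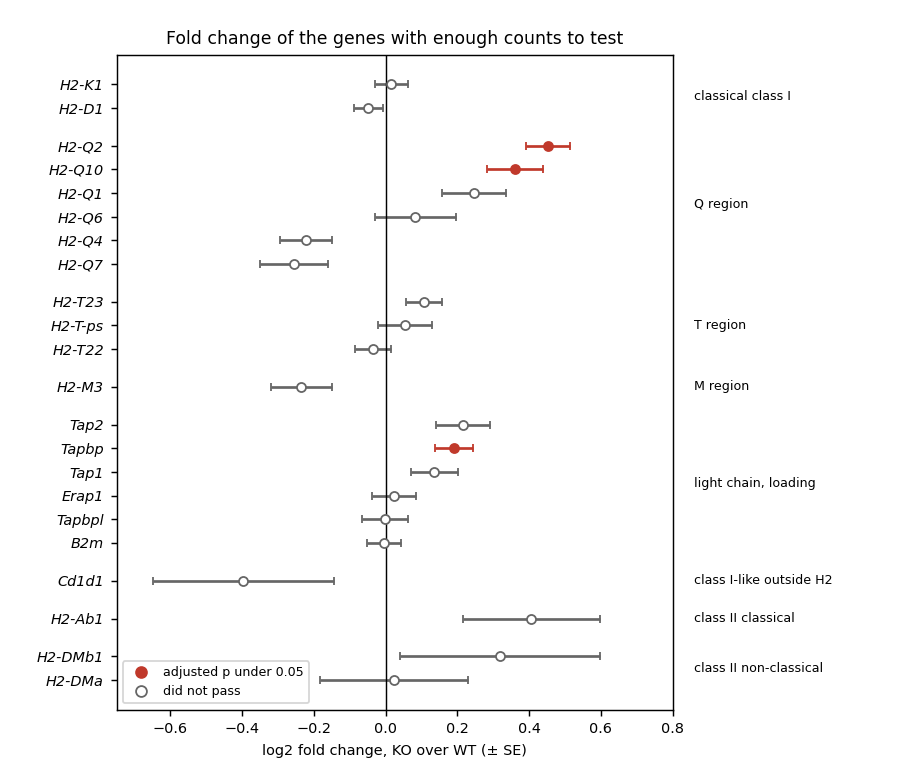
Log2 fold change, KO over WT, with its standard error for the 22 tested genes, grouped by role. The filled points, H2-Q2, H2-Q10 and Tapbp, passed an adjusted p of 0.05, and Q-region genes lie on both sides of 0.

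The classical heavy chain genes were the most abundant of the group, and neither passed the test between the genotypes. H2-K1 and H2-D1 encode the molecules that present most peptides to CD8 T cells in C57BL/6 mice. By the authors' FPKM, which divides by transcript length and so allows genes to be compared, H2-K1 stood at 253 ± 4.47 FPKM in KO and 250 ± 11.4 FPKM in WT (SD, n = 4 each). H2-D1 followed at 223 ± 1.34 FPKM in KO and 230 ± 6.68 FPKM in WT.

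On the TMM-scaled CPM scale used for comparing genotypes, H2-K1 had 477, 503, 485 and 482 CPM in KO libraries 5 to 8, against 471, 494, 445 and 518 CPM in WT libraries 13 to 16. The KO values lie within the range of the WT values. Its log2 fold change was 0.01 ± 0.05 (SE), with a 95% interval of -0.08 to 0.11 (adjusted p = 0.879 by edgeR). H2-D1 had 447, 456, 446 and 439 CPM in KO, against 449, 475, 440 and 486 CPM in WT, a log2 fold change of -0.05 ± 0.04 (SE, adjusted p = 0.477 by edgeR). These groups overlap as well, and the WT libraries spread more widely than the KO libraries for both genes, with an SD of 11.4 CPM in KO and 31.4 CPM in WT for H2-K1.

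The Q region lies next to H2-D1 and holds non-classical heavy chain genes. It held 2 of the 3 genes called, and its 6 genes did not move together: 2 were higher in KO, 0 were lower, and 4 did not pass. H2-Q2 (NCBI Gene ID 15013, chr17:35342307-35346764, plus strand, GRCm38.p6) had 121, 122, 117 and 135 CPM in KO, against 81.3, 94.7, 97.9 and 88.0 CPM in WT. Every KO library was above every WT library. The means were 124 ± 7.67 CPM in KO, against 90.5 ± 7.39 CPM in WT (SD, n = 4 each), a log2 fold change of 0.45 ± 0.06 (SE, adjusted p = 0.00028 by edgeR) with a 95% interval of 0.32 to 0.59.

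H2-Q10 encodes a secreted class I molecule known from liver and serum. It had 17.0, 19.4, 18.4 and 19.5 CPM in KO, against 12.6, 16.0, 15.0 and 14.3 CPM in WT. Here too all KO libraries were above all WT libraries, and the smallest gap was between KO library 5 and WT library 14. The log2 fold change was 0.36 ± 0.08 (SE, adjusted p = 0.0061 by edgeR). H2-Q2 and H2-Q10 kept their direction and passed the threshold in all 8 fits that left out 1 library and in all 7 other settings tried at that threshold.

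The other Q-region genes pointed both ways. H2-Q1 had 16.2 to 19.8 CPM in KO, against 13.3 to 17.2 CPM in WT, with a log2 fold change of 0.25 ± 0.09 (SE, adjusted p = 0.0766 by edgeR). H2-Q4 encodes Qb-1, a secreted heavy chain, and had 20.1, 17.8, 17.3 and 17.4 CPM in KO, against 21.9, 22.99, 19.0 and 20.8 CPM in WT. For H2-Q4, KO library 5 lies above WT library 15, and the log2 fold change of -0.22 ± 0.07 (SE) missed the threshold (adjusted p = 0.0509 by edgeR). H2-Q7, a gene for the lipid-anchored antigen Qa-2, had 4.77 to 5.53 CPM in KO, against 5.88 to 6.89 CPM in WT (log2 fold change -0.26 ± 0.10 SE, adjusted p = 0.0908 by edgeR). The genotypes did not overlap for H2-Q7, which shares 11.98% of its windows with other genes (21.9% in the transcript with its longest coding sequence). H2-Q6, another gene for Qa-2, was at 3.66 ± 0.239 CPM in KO, against 3.45 ± 0.362 CPM in WT (adjusted p = 0.697 by edgeR). H2-Q4 was called lower with the DESeq2 Wald test (adjusted p = 0.0357), with the stricter filter (0.0478) and without KO library 5 (0.0299) or WT library 15 (0.0136). H2-Q1 was called higher with the DESeq2 Wald test (0.0485) and without WT library 15 (0.0206).

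**Figure D3:**
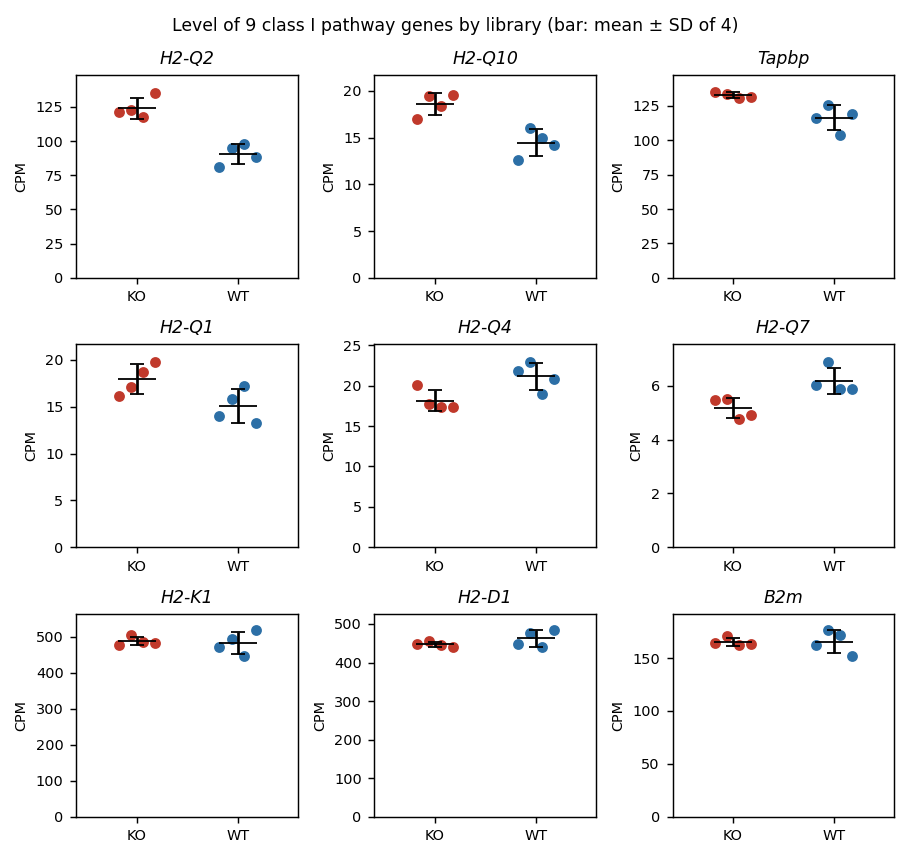
TMM-scaled CPM of 9 class I pathway genes in each library, KO left of WT, with the mean and SD of 4 libraries and axes that start at 0. For H2-Q2, H2-Q10 and Tapbp all KO points lie above all WT points, for H2-Q7 all lie below, and for H2-K1, H2-D1 and B2m the points of the genotypes overlap.

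H2-Q2 made up a larger share of the class I heavy chain counts in every KO library than in any WT library. These counts are those of the classical, Q-region and T-region genes, without the M region. H2-Q2 took 9.77, 9.52, 9.37 and 10.7% of them in KO, against 6.85, 7.49, 8.37 and 6.83% in WT. H2-K1 and H2-D1 together took 73.2 to 74.6% in KO and 75.6 to 77.9% in WT, again without overlap. H2-Q2 is part of that total, so its larger share by itself lowers theirs, and theirs is no separate result. The summed level of H2-K1 and H2-D1 overlapped between the genotypes. It was 934 ± 17.4 CPM in KO, against 944 ± 52.6 CPM in WT (SD, n = 4 each). For every 100 counts of H2-K1 there were 24.2 to 28.0 counts of H2-Q2 in KO and 17.0 to 22.02 in WT. These ratios are within a library and do not depend on scaling between libraries.

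The summed level of the same heavy chain genes, without the M region, was 1259 ± 19.6 CPM in KO, against 1227 ± 57.7 CPM in WT (SD, n = 4 each). The ratio was 1.03, and it was 0.999 without H2-Q2. The summed Q-region level was 187 ± 8.94 CPM in KO, against 151 ± 10.3 CPM in WT. This sum joins reads that copies within the region could share. Its libraries did not overlap, with 180 to 200.3 CPM in KO, against 139 to 160 CPM in WT. Most of the Q-region sum was H2-Q2, at 124 ± 7.67 CPM in KO, against 90.5 ± 7.39 CPM in WT. The Q-region sum without H2-Q2 was not computed, and the other Q-region genes pointed both ways. By FPKM, H2-Q2 was at 53.0 ± 3.54 in KO, near H2-T23 at 55.2 ± 1.69. In WT it was at 38.9 ± 3.72 FPKM, near Tapbp at 36.6 ± 2.33.

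In the T and M regions 4 genes were tested and none passed at an adjusted p under 0.05, with 0 higher and 1 lower at an unadjusted p under 0.05, and 0 called by the DESeq2 Wald test or limma-voom. H2-T23, the most abundant gene of the T region, encodes Qa-1, which shows leader peptides of other class I molecules to inhibitory receptors of natural killer cells. It had 81.0, 87.3, 85.7 and 82.7 CPM in KO, against 74.0, 80.2, 74.9 and 83.8 CPM in WT, and the groups overlap. The log2 fold change was 0.11 ± 0.05 (SE, adjusted p = 0.177 by edgeR). H2-T22, H2-T23 and H2-T24 overlap the transcript A930015D03Rik in the annotation. H2-T22, a ligand of gamma delta T cells, was at 41.2 ± 2.15 CPM in KO, against 42.3 ± 0.892 CPM in WT, and H2-T-ps, which the table lists as protein-coding and which overlaps BC023719, at 11.8 ± 0.93 CPM in KO, against 11.3 ± 0.669 CPM in WT. H2-T3, the gene of the thymus leukemia antigen, had 4 and 6 counts in KO libraries 6 and 8 and 0 elsewhere. H2-T24 had 6 counts in KO library 7, 7 and 3 counts in WT libraries 14 and 15, and 0 elsewhere.

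H2-M3, which presents peptides that begin with formylmethionine, a mark of bacterial and mitochondrial proteins, was the 1 tested M-region gene. It had 6.17, 6.95, 6.18 and 7.10 CPM in KO, against 8.30, 7.92, 7.34 and 7.56 CPM in WT. All KO libraries were below all WT libraries, but the log2 fold change of -0.24 ± 0.08 (SE) did not pass (adjusted p = 0.0788 by edgeR). H2-M2 had 0 to 11 counts per library in KO and 0 to 5 in WT, and the 10 other M-region genes had no counts. A count of 0 allows up to 3 counts, which is 0.0618 to 0.0708 CPM in KO libraries and 0.0609 to 0.0807 CPM in WT libraries, for counting error only. If both mates of a pair were counted, the limit is 6 counts, which is 0.124 to 0.142 CPM in KO libraries and 0.122 to 0.161 CPM in WT libraries.

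Among the light chain and loading genes tapasin rose and the light chain did not differ beyond its spread. B2m had 164, 171, 163 and 163 CPM in KO, against 162, 176, 172 and 152 CPM in WT, with a log2 fold change of -0.0045 ± 0.05 (SE, adjusted p = 0.968 by edgeR). The interval of its log2 fold change ran from -0.11 to 0.10. By FPKM, B2m was at 166 ± 2.20 in KO and 167 ± 13.5 in WT, below H2-K1 and H2-D1 and above every other gene of the group.

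Tapbp encodes tapasin, which holds the empty class I molecule at TAP (chr17:33919478-33929290). It had 135, 134, 131 and 131 CPM in KO, against 117, 126, 104 and 119 CPM in WT. All KO libraries were above all WT libraries, and the KO libraries spread less, with means of 133 ± 2.19 CPM in KO, against 116 ± 9.07 CPM in WT (SD, n = 4 each). Its log2 fold change was 0.19 ± 0.05 (SE, adjusted p = 0.0259 by edgeR). Tapbp overlaps the predicted gene Gm19412 in the annotation. The call was lost without KO library 5, 6, 7 or 8 (adjusted p of 0.0795, 0.0595, 0.0559 and 0.0650 by edgeR) and without WT library 13 (0.0657), and it was kept in the other 3 such fits.

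The TAP transporter genes did not pass. Tap2 was at 16.9 ± 1.20 CPM in KO, against 14.6 ± 1.24 CPM in WT, a log2 fold change of 0.21 ± 0.07 (SE, adjusted p = 0.0694 by edgeR, and 0.0249 without WT library 14). Tap1 was at 27.9 ± 0.389 CPM in KO, against 25.4 ± 2.56 CPM in WT (log2 fold change 0.14, adjusted p = 0.190 by edgeR, and 0.0191 without WT library 16). For Tap1 the KO libraries lay between 27.5 and 28.4 CPM, within the WT range of 23.3 to 29.1 CPM. Tapbpl, the peptide editor TAPBPR, was at 16.5 to 17.3 CPM in KO, against 15.3 to 18.1 CPM in WT, and Erap1 at 49.9 ± 0.501 CPM in KO, against 49.1 ± 4.80 CPM in WT. Nlrc5 had 11, 7, 8 and 0 counts in KO, against 0, 13, 4 and 12 counts in WT, too few to test. Erap1 overlaps Cast and B2m overlaps Patl2 in the annotation, and the use of strand in counting is not stated in the sources used here.

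Of the class I-like genes outside the H2 complex, Cd1d1, which presents lipids to natural killer T cells, had 31, 32, 29 and 20 counts in KO, against 32, 34, 50 and 25 counts in WT. The groups overlap, and its log2 fold change was -0.40 ± 0.25 (SE, adjusted p = 0.333 by edgeR). Mr1, which presents vitamin B metabolites to mucosal-associated T cells, had at most 8 counts in any library.

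Class II genes were at the edge of detection. H2-Ab1, the beta chain of the I-A molecule, was the most abundant of them at 0.812 ± 0.0521 FPKM in KO and 0.612 ± 0.107 FPKM in WT. It had 45, 54, 58 and 52 counts in KO, against 27, 46, 44 and 33 counts in WT. After scaling all KO libraries were above all WT libraries, at 1.06 to 1.22 CPM in KO, against 0.647 to 0.936 CPM in WT. The log2 fold change of 0.41 ± 0.19 (SE) did not pass (adjusted p = 0.183 by edgeR), and its 95% interval ran from -0.01 to 0.82.

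The partner chain of H2-Ab1 behaved differently. H2-Aa, which encodes the alpha chain of I-A, had 35 counts in KO library 6 and 0 in each of the other 7 libraries. Cd74, the invariant chain that guides class II molecules to endosomes, had 6, 57, 5 and 11 counts in KO, against 4, 7, 2 and 2 counts in WT. H2-Eb1 had 0, 20, 0 and 2 counts in KO, against 0, 6, 4 and 0 counts in WT, and H2-DMb2 had 6 counts in KO library 6, 4 in WT library 14 and 0 elsewhere. In all 4 genes the highest library was KO library 6, while its 54 counts of H2-Ab1 lay within the range of the other KO libraries.

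The same library was highest for some markers of other cell types, but not for all. The endothelial markers Pecam1 and Cdh5 had 20 and 30 counts in KO library 6, and in the other 7 libraries 0 to 2 counts of Pecam1 and 0 of Cdh5. Fcer1g, of myeloid cells, had 8 counts there, the collagen gene Col3a1 had 5, and Adgre1 of macrophages had 4, and all 3 were at 0 in the other 7 libraries. The pan-leukocyte gene Ptprc was at 0 in KO library 6, with 0 to 9 counts in KO and 0 to 9 in WT. Itgam and Csf1r, also of myeloid cells, had counts in all 8 libraries. KO library 6 had 42 counts of Itgam (36 to 57 in KO, 15 to 38 in WT). It had 29 counts of Csf1r (21 to 37 in KO, 18 to 40 in WT). Pdgfra had 3 counts there (0 to 6 in KO, 0 to 7 in WT), and Col1a1 had 10 (0 to 10 in KO, 4 to 7 in WT). Cd79a had 3 counts in KO library 7 and 0 elsewhere. Cd3e, Ms4a1, Itgax, Tyrobp and Flt3 were at 0 in all 8 libraries.

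As whole lists, the 12 leukocyte markers summed to 29.6 to 35.2 CPM in KO, against 31.6 to 44.0 CPM in WT, nearly all of it Cd68, which was lower in KO (log2 fold change -0.31, adjusted p = 0.0399 by edgeR), and 7 of them were at 0 in KO library 6 against 7 to 9 in the others. The 6 mesenchymal and endothelial markers summed to 5.79 to 7.65 CPM in KO, against 4.00 to 6.48 CPM in WT, most of it Pdgfrb, and 0 of them were at 0 in KO library 6 against 3 or 4 in the others. The part of these cells in the class II counts was not tested. With KO library 6 set aside, H2-Aa was at 0 in all libraries and Cd74 at 5 to 11 counts in KO and 2 to 7 in WT.

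**Figure D4:**
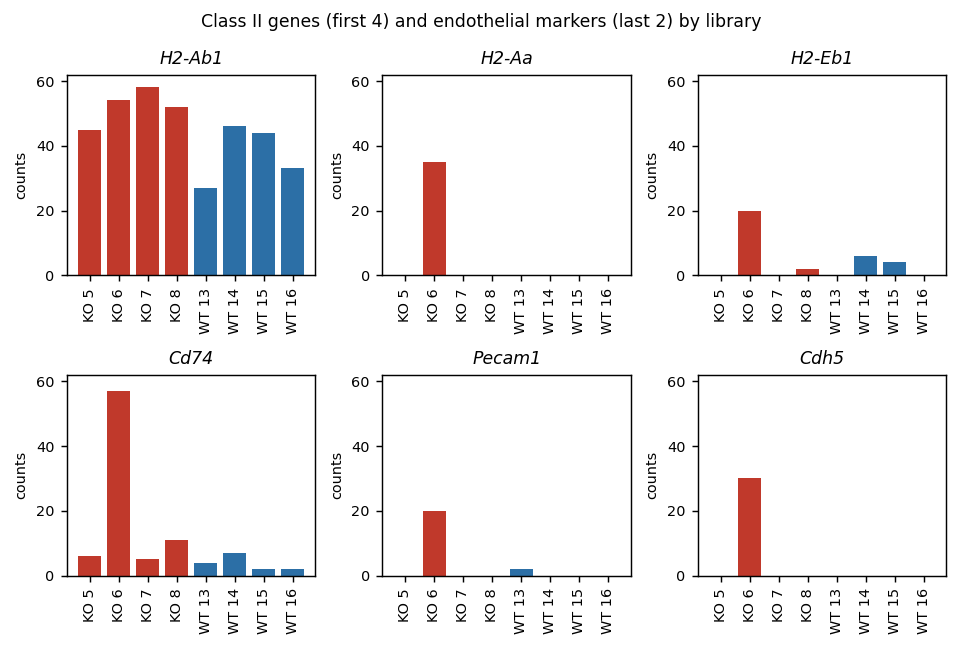
Counts of H2-Ab1, H2-Aa, H2-Eb1 and Cd74, and of the endothelial markers Pecam1 and Cdh5, in each library, with KO left of WT. KO library 6 holds the highest bar in every panel except that of H2-Ab1, in which all 8 libraries have counts.

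The molecules that edit class II peptides were low as well. H2-DMa had 73, 69, 65 and 84 counts in KO, against 59, 108, 69 and 41 counts in WT, and overlaps the gene Brd2. H2-DMb1 was the most abundant of them by FPKM, at 0.354 ± 0.0451 in KO and 0.283 ± 0.0797 in WT. It had 24, 21, 27 and 26 counts in KO, against 16, 22, 14 and 22 counts in WT. Neither passed (log2 fold change 0.02 and 0.32, adjusted p of 0.964 and 0.507 by edgeR). Ciita, the class II transactivator gene, had 0, 4, 2 and 11 counts in KO, against 0, 0, 2 and 5 counts in WT. With no filter on low counts the 10 untested genes with counts gave 0 calls and 3 with an unadjusted p under 0.05, and the smallest adjusted p was 0.0973, for Cd74.

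The wider machinery of antigen presentation was read from 6 lists of partner genes, of which 65 of 71 entries were in the table under the listed symbol and 59 were tested. In KO 1 of the 59 was higher (Ctss) and 11 were lower, against a background of 7.63% and 8.26% over all genes tested. Leaving out 1 library gave 0 to 4 higher and 4 to 12 lower, with 6, 7, 4, 5 and 7 lower without KO library 5, KO library 7, KO library 8, WT library 13 and WT library 14, and 9 lower without KO library 6. In the higher direction the count was 0 without KO library 5, 6 or 8 or WT library 13, and 4 without WT library 15. Of the 5 genes for interferon-inducible subunits of the immunoproteasome and its activator, none passed at an adjusted p under 0.05, with 1 higher (Psmb9) at an unadjusted p under 0.05, and 0 called by the DESeq2 Wald test or limma-voom. The activator genes Psme1 and Psme2 were at 72.8 ± 1.51 and 68.1 ± 2.00 CPM in KO, and at 73.0 ± 2.93 and 65.2 ± 2.16 CPM in WT. Of 4 constitutive counterparts none passed, with 1 higher and 1 lower at an unadjusted p under 0.05. Psme3 was nearest, at 139 ± 0.885 CPM in KO, against 127 ± 7.04 CPM in WT (adjusted p = 0.0544 by edgeR, and 0.0208 with the DESeq2 Wald test), and Psmb7 was at 121 ± 2.05 CPM in KO, against 129 ± 4.38 CPM in WT.

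Of 12 chaperones and trimming enzymes 2 were lower and 0 higher. Pdia6, a disulfide isomerase of the endoplasmic reticulum, was at 189 ± 5.39 CPM in KO, against 213 ± 6.94 CPM in WT (log2 fold change -0.17 ± 0.04 SE, adjusted p = 0.0110 by edgeR, and 0.0567 without KO library 8). Erp29, another chaperone there, fell to 72.5 ± 1.65 CPM in KO, against 80.6 ± 3.15 CPM in WT (adjusted p = 0.0300 by edgeR), and its call was lost without any 1 KO library, WT library 13 or WT library 16, with adjusted p between 0.0514 and 0.102. The loading-complex chaperones calreticulin (Calr) and ERp57 (Pdia3) had log2 fold changes of -0.01 and -0.01 and did not pass.

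Of 10 class II processing genes 1 rose and 2 fell. Ifi30, the thiol reductase GILT that opens disulfide bonds of antigens in endosomes, had 79.8, 90.9, 79.6 and 80.3 CPM in KO, against 105, 118, 108 and 114 CPM in WT. All KO libraries were below all WT libraries, and the log2 fold change was -0.43 ± 0.05 (SE, adjusted p = 0.00019 by edgeR). The protease gene Lgmn, of the asparaginyl endopeptidase, fell to 42.2 ± 0.949 CPM in KO, against 49.0 ± 3.74 CPM in WT (adjusted p = 0.0196 by edgeR, and 0.0651, 0.0657 and 0.0722 without KO library 5, KO library 8 and WT library 13). Ctss, cathepsin S, which cuts the invariant chain, rose to 82.5 ± 3.17 CPM in KO, against 73.7 ± 3.78 CPM in WT (adjusted p = 0.0382 by edgeR). The Ctss call was lost without KO library 5, 6 or 8, without WT library 13 and with no low-count filter, with adjusted p between 0.0539 and 0.129.

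Of the 18 regulators of MHC transcription reported here, 0 rose and 4 fell by edgeR. At an unadjusted p under 0.05 the numbers were 0 higher and 5 lower, and the DESeq2 Wald test and limma-voom gave 0 higher as well. Nfya, a subunit of the CCAAT-binding factor NF-Y, fell to 40.3 ± 1.97 CPM in KO, against 47.0 ± 1.56 CPM in WT (log2 fold change -0.22 ± 0.05 SE, adjusted p = 0.0083 by edgeR). Binding of NF-Y to the promoters shown above was not measured. Nfyb and Nfyc, the other subunits, did not pass (log2 fold change -0.03 and 0.04). Ezh2, the histone methyltransferase of Polycomb, which can silence MHC genes, fell to 48.3 ± 1.64 CPM in KO, against 58.2 ± 3.24 CPM in WT (adjusted p = 0.0028 by edgeR). Ifngr1, a receptor chain for interferon gamma, fell to 178 ± 4.56 CPM in KO, against 194 ± 3.67 CPM in WT (log2 fold change -0.13 ± 0.04 SE, adjusted p = 0.0328 by edgeR). Rela (log2 fold change -0.19) also fell and is named after its values were seen. Both calls were lost in 6 of 8 fits that left out a library, with adjusted p up to 0.117 for Ifngr1 and 0.137 for Rela. Irf1, a factor induced by interferon, was at 46.1 ± 2.43 CPM in KO, against 48.4 ± 1.83 CPM in WT and did not pass, nor did Rfx5 (log2 fold change 0.12, adjusted p = 0.237 by edgeR).

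Of 10 tested ligands of T cells and natural killer cells 0 rose and 3 fell. Vtcn1, the inhibitory ligand B7-H4, had 6.74, 7.67, 6.52 and 6.67 CPM in KO, against 12.7, 10.9, 12.5 and 10.4 CPM in WT. This was the lowest log2 fold change among the 59 partner genes, at -0.75 ± 0.09 (SE, adjusted p = 0.00010 by edgeR), and the genotypes did not overlap. Icosl, the ligand of ICOS, fell to 19.97 ± 0.806 CPM in KO, against 23.5 ± 1.78 CPM in WT (adjusted p = 0.0206 by edgeR). The adhesion ligand gene Icam1 fell to 5.19 ± 0.522 CPM in KO, against 6.58 ± 0.636 CPM in WT (adjusted p = 0.0390 by edgeR), with overlapping libraries. The Icosl call was lost without KO library 5 or 8 or WT library 13 or 14 (adjusted p between 0.0581 and 0.0834), and the Icam1 call in 5 of 8 such fits (adjusted p between 0.0750 and 0.121) and with no low-count filter (0.0675). Cd274, which encodes PD-L1, was at 7.26 ± 0.482 CPM in KO, against 6.80 ± 0.443 CPM in WT and did not pass. Vtcn1, Ifi30, Nfya and Ezh2 passed in all 8 fits that left out a library and in all 7 other settings tried at the 0.05 threshold.

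**Figure D5:**
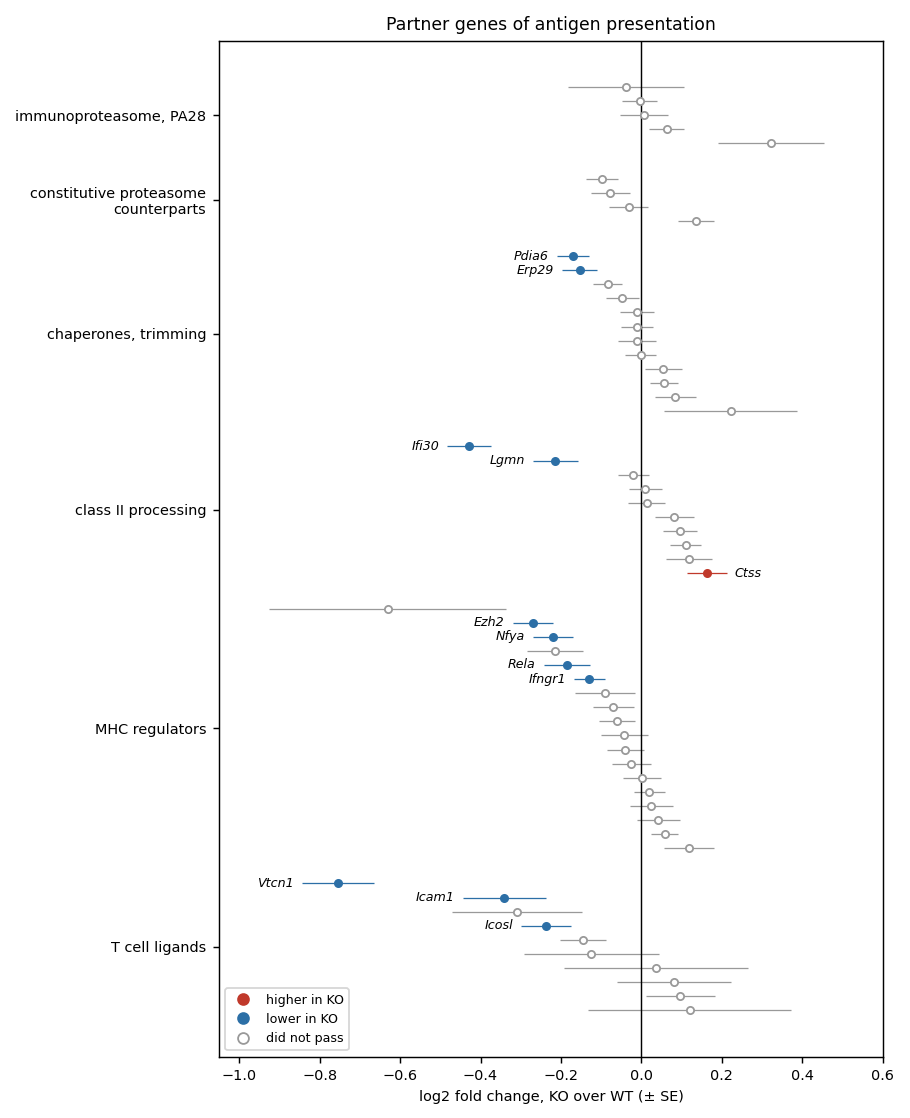
Log2 fold change, KO over WT, with its standard error for the 59 tested partner genes in 6 lists. The 1 gene that was higher in KO is Ctss, and Vtcn1, at -0.75, lies farthest to the left.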

How the data were processed

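RNA-seq libraries of 4 KO and 4 WT organoid samples were analysed from the table the authors deposited. The deposited values used for tests are raw counts per gene. The authors' FPKM values were used only to compare levels between genes, and the authors' TPM values, in the same table, only to check their sum per library. Stranded mRNA libraries were made from 1 µg of RNA with an integrity number above 7.0, per the labels' protocols. The build GRCm38 and the tools HTSeq, Bowtie2, TopHat and TopHat2 are named in the submitters' processing notes without roles. How reads that match several genes were counted, and whether strand was used, is not stated in the sources used here. In every library more genes had 2 counts (673 to 772) than 1 count (548 to 622), so both mates of a pair may have been counted.

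Counts passed filterByExpr, were scaled by TMM, and entered the edgeR 4.0.16 quasi-likelihood test (R 4.3.3). Benjamini-Hochberg adjustment ran over 14945 genes, with a threshold of 0.05. No covariate was used. CPM is TMM-scaled, and errors are the SD of 4 libraries. The genes and the partner and marker lists were chosen with earlier results of these data known. Alternatives were DESeq2 1.42.0 (size factors and Wald test), limma 3.58.1 voom, upper-quartile scaling, library totals, other low-count filters (none, or 1 CPM in 4 libraries with a mean of 5 CPM), an adjusted p of 0.01 and leaving out each library. The same settings for partner genes, partner lists and H2-K2 were added after seeing the data.

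Named with full values were genes called by the test, H2-K1, H2-D1, B2m, the most abundant gene by FPKM in each role group, and from each partner list up to 3 genes of the smallest adjusted p, if under 0.05, and otherwise the 2 most abundant. Other genes named were chosen after their values were seen. H2-Ke6 and 5 H2 rows listed as pseudogenes, 6 rows in all, were left out, and 1 partner gene and 1 marker gene of the lists are not reported here and enter no count of them. A comparison of proteins was planned, and coding sequences of GENCODE vM21 transcripts (GRCm38) were compared in its place with Biopython 1.88. Promoter windows are from RefSeq (GRCm38.p6). Python 3.11.15 with numpy 2.4.6, scipy 1.17.1, pandas 2.3.3 and matplotlib 3.10.9 was used for tables and plots. The edgeR step was tested on simulated data.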

Additional observations from a re-analysis of the deposited data

Results flagged for a closer look

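Among the 62 groups of 4 libraries of these genes that had any spread, 11 held a library far from the other 3. In 4 of the 11 only that library had any counts, which sets it apart by construction. Of the other 58 groups 7 held such a library. Chance alone gives about 1 in 20 for independent groups of normally distributed values. These groups share libraries and some hold few counts, so 7 of 58 cannot be judged against that rate. Of the 11, 6 were KO library 6. It had 0.722 CPM of H2-Aa, with the other 3 KO libraries at 0, and 0.413 CPM of H2-Eb1, with the others at 0 to 0.0430 CPM. It had 1.18 CPM of Cd74, with the others at 0.105 to 0.237 CPM, and 0.124 CPM of H2-DMb2, with the others at 0. It also had 0.433 CPM of H2-DMb1, below the other 3 at 0.560 to 0.570 CPM, and 171 CPM of B2m, above the others at 163 to 164 CPM.

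The other flagged values were spread over libraries. KO library 5 had 20.1 CPM of H2-Q4, above the other KO libraries at 17.3 to 17.8 CPM. KO library 7 had 0.127 CPM of H2-T24, from 6 counts, with the others at 0. WT library 13 had 0.647 CPM of H2-Ab1, below the other WT libraries at 0.891 to 0.936 CPM. WT library 14 had 6.89 CPM of H2-Q7, above the others at 5.88 to 6.02 CPM, and 0.0808 CPM of H2-DMb2, from 4 counts, with the others at 0.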

How the results depend on the processing

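The count of MHC and loading genes higher in KO was 2 to 4 under every setting (2 to 4 when 1 library was left out), against 3. The count lower in KO was 1 with the DESeq2 Wald test and 1 with the stricter filter, both H2-Q4, and 0 to 1 when 1 library was left out, against 0. Of all genes tested, 562 were higher and 597 lower at an adjusted p of 0.01, against 1140 and 1234, and leaving out 1 library gave 696 to 1386 higher and 724 to 1404 lower. Of the counts that moved by over 1.5 times, 757 (higher) came from leaving out KO library 5, 696 (higher) and 724 (lower) from KO library 8, and 808 (lower) from WT library 13.

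Of all partner genes, 2 were higher with DESeq2 size factors, 3 with the DESeq2 Wald test, 2 with the stricter filter, 0 with no filter and 0 at an adjusted p of 0.01, against 1, and 4 were lower at 0.01, against 11, with 0 to 4 higher and 4 to 12 lower when 1 library was left out. By list, constitutive proteasome genes gave 1 higher with DESeq2 size factors, the DESeq2 Wald test and the stricter filter, and 0 to 1 with 1 library left out. Class II processing genes gave 2 higher with the DESeq2 Wald test, 0 with no filter and 0 at 0.01 (0 to 3 with 1 library left out), and 1 lower at 0.01 (1 to 2). Chaperones gave 0 lower at 0.01 (0 to 2), regulators 2 lower with no filter and 2 at 0.01 (2 to 5), and T cell ligands 1 lower at 0.01 (1 to 3).

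Over the single genes followed, 496 recomputed values kept their direction and side of the threshold, 45 lost a call, 12 gained one, and 27 changed sign in genes near 0 that were never called (B2m, H2-K1, H2-DMa, H2-T22, Erap1, Tapbpl and Psme1). No called gene changed direction. The cause of these changes was not tested, except that a threshold of 0.01 passes fewer genes by construction. No paired analysis was possible because the genotypes share no library numbers. Depth limits the class II genes, Ciita and Nlrc5, whose counts are too low to test or nearly so.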

Other observations

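One H2 row outside the group, H2-K2, listed as a transcribed pseudogene and chosen after its values were seen, was lower in KO. It had 2.29, 2.68, 2.72 and 2.60 CPM in KO, against 3.81, 4.20, 3.77 and 3.59 CPM in WT, and the genotypes did not overlap. Its log2 fold change was -0.58 ± 0.11 (SE, adjusted p = 0.0037 by edgeR), and it passed in all 8 fits that left out a library. H2-T10, a pseudogene copy of H2-T22, had 74 to 118 counts in KO and 72 to 106 in WT, and H2-Q5 had 11 to 22 counts in KO and 12 to 23 in WT.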
